A study of Danio rerio with 6 samples.

Results

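Keratins are the intermediate filament proteins of epithelial cells, and 9 keratin genes of the zebrafish embryo are described here: *krt4*, *krt5*, *krt8*, *krt17*, *krt18*, *krt92*, *krt97*, *cyt1* and *cyt1l*. They were chosen by gene symbol, and the transcripts annotated to each symbol were summed, so that 9 of the 26190 genes in the quantified annotation entered. Cells were sorted by fluorescence from *Tg(krt4:GFP)* embryos. All 9 genes were higher in the GFP-positive than in the GFP-negative population, by 0.99 to 4.94 on the log2 scale. No GFP-negative library reached the level of a GFP-positive library for any of them. Of all genes tested, 24.1% were called higher in GFP-positive cells, and 24.2% had all 3 GFP-positive libraries above all 3 GFP-negative libraries. The 9 were picked with results of these data known. Among them the largest differences were those of *krt17*, *krt5* and *krt92*, whose GFP-negative level was 3.51% to 6.77% of the GFP-positive level. The smallest were those of *krt18*, *krt8* and *krt97*, whose GFP-negative level was 49.9% to 54.4% of it. The keratin make-up of the 2 populations differed: *krt18* and *krt8* together gave 24.3% of the summed keratin level in GFP-positive cells, against 47.4% in GFP-negative cells.

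RNA was sequenced from 3 GFP-positive libraries, labelled periderm, and 3 GFP-negative libraries, labelled non-periderm. Both populations came from transgenic embryos at the 4-somite stage, carrying GFP under regulatory sequence of *krt4*, and no other allele or agent is given for either. Embryos of each of 3 independent incrosses were pooled, dissociated and separated by fluorescence-activated cell sorting, and each incross gave both populations. The GFP-negative population is every sorted cell without GFP and is thus a mixture of cell types. The sort itself used the activity of *krt4* regulatory sequence, so the difference in *krt4* is not independent of how the cells were chosen. The same holds for every ratio, share and sum that includes *krt4*.

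A keratin filament is an obligate heteropolymer of an acidic type I and a basic type II keratin, so an epithelial cell makes at least a pair of them. The pairs differ between epithelia: in mammals KRT8 and KRT18 form the filaments of simple, single-layered epithelia, while KRT5 pairs with another type I keratin in the basal cells of the epidermis. In the zebrafish embryo the surface epithelium begins as the enveloping layer (EVL), becomes the periderm, and covers the embryo as a single sheet of flat cells over the basal epidermis. Filaments anchored at desmosomes by plakin proteins carry tension across such sheets.

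The 6 libraries held 40584467 to 49679602 estimated counts, and the populations were close in depth. Among 20944 genes tested with edgeR's quasi-likelihood test, 5041 were called higher in GFP-positive cells and 5229 higher in GFP-negative cells, a call being a Benjamini-Hochberg adjusted p below 0.05 with a mean above 1 TPM, the length-corrected share of a gene among all transcripts, in the higher population. Thus 24.1% of all genes tested were called higher in GFP-positive cells and 25.0% higher in GFP-negative cells, and 24.2% had all 3 GFP-positive libraries above all 3 GFP-negative libraries. The median log2 fold change of all genes tested was 0.02. With limma on log2(TPM + 1) the median moved to -0.11 and genes higher in GFP-positive cells made up 38.7% of its calls, against 49.1% with edgeR. Because these are bulk libraries, fewer cells of a type and less RNA per cell cannot be told apart.

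The labelled tissue was set beside markers of the EVL or periderm other than keratins. This list was chosen with earlier results of these data known, so it is not an independent check of the label. Of the 10 markers, 9 were called higher in GFP-positive cells, where 24.1% of all genes tested were, with a median log2 fold change of 3.90. Their summed level was 492 to 504 TPM in GFP-positive libraries and 30.3 to 38.4 TPM in GFP-negative libraries. The exception, *grhl3*, a grainyhead transcription factor of surface epithelium, had a log2 fold change of 0.29 and an edgeR quasi-likelihood adjusted p of 0.057. On the TPM scale it averaged 7.40 in GFP-positive cells, against 7.51 in GFP-negative cells, and its libraries overlapped. It was called without GFP-positive replicate 3 (edgeR quasi-likelihood adjusted p = 0.0117), without GFP-negative replicate 1 (0.0381) and with the replicate number as a block (0.0431), and was not called with limma.

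*krt4*, a type II keratin of the EVL and the gene whose regulatory sequence drives the reporter, was the most abundant of the 9 in GFP-positive cells. It had 2384, 2315 and 2591 TPM in the GFP-positive libraries, against 545, 624 and 636 TPM in the GFP-negative libraries. All 3 GFP-positive values lay far above the GFP-negative ones, and *krt4* was still among the more abundant genes of GFP-negative cells. Ranked by mean TPM among all genes, it was number 35 in GFP-positive cells and number 272 in GFP-negative cells. Its log2 fold change was 2.13 (SE 0.05), with an adjusted p of 2.61e-13 by edgeR's quasi-likelihood test.

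**Figure D1:**
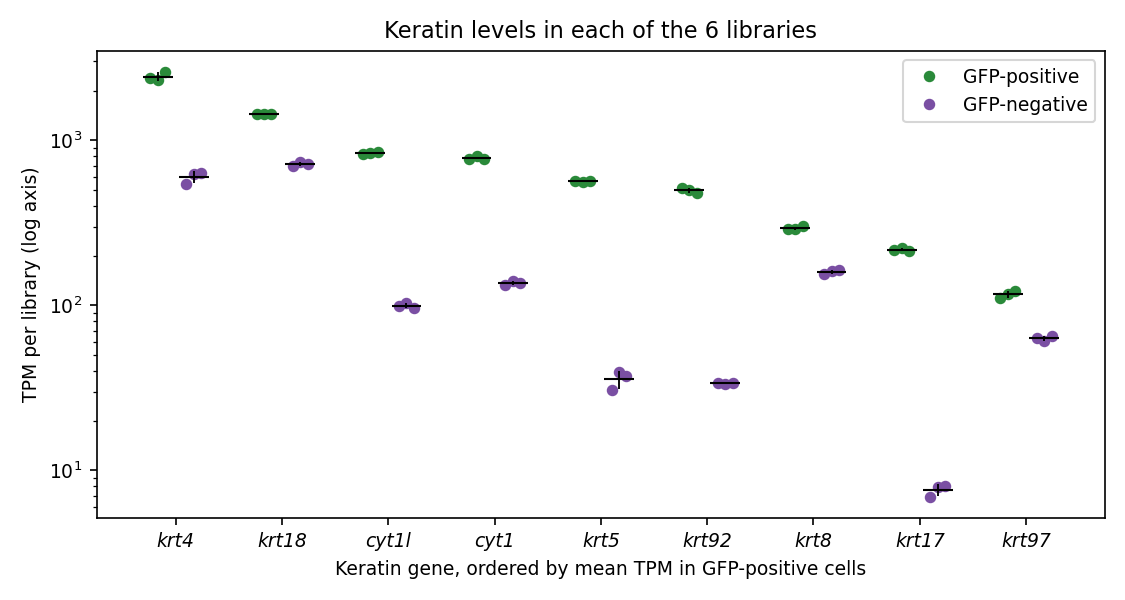
TPM of the 9 keratins in each library on a log axis, with GFP-positive libraries in green and GFP-negative libraries in purple. Dots are libraries, and black lines give the mean and SD of 3 libraries. The populations do not overlap for any gene, and the gap runs from less than 2-fold for *krt8* and *krt97* to 28.5-fold for *krt17*.

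The remaining type II genes parted. *krt5*, whose mammalian counterpart is a keratin of the basal epidermis, had 567, 556 and 566 TPM in GFP-positive libraries, against 30.7, 39.4 and 37.2 TPM in GFP-negative libraries. Its log2 fold change was 4.16 (SE 0.07), with an edgeR quasi-likelihood adjusted p of 7.39e-15. *krt8*, the type II partner of *krt18* in simple epithelia, had 289, 291 and 301 TPM in GFP-positive libraries, against 155, 161 and 163 TPM in GFP-negative libraries. Its log2 fold change was 0.99 (SE 0.05), with an edgeR quasi-likelihood adjusted p of 6.11e-10. The RefSeq table lists *krt8* among the older names of *krt4* as well, and the values here follow the gene identifiers of the files. *krt5* and *krt8* lie side by side in the RefSeq annotation, and their levels relative to each other differed between populations. The ratio of *krt5* to *krt8* was 1.96, 1.91 and 1.88 in GFP-positive libraries and 0.198, 0.245 and 0.228 in GFP-negative libraries. The groups did not overlap, and the exact permutation test gave p = 0.1. This is the smallest p that 3 libraries against 3 allow in a two-sided test. Groups without overlap always give it, so here and below it adds nothing to the separation of the libraries.

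Of the type I genes, *krt18* was the most abundant in both populations. It had 1452, 1447 and 1448 TPM in GFP-positive libraries, a spread of 2.65 TPM (SD), against 703, 742 and 723 TPM in GFP-negative libraries. Its log2 fold change was 1.19 (SE 0.05), with an edgeR quasi-likelihood adjusted p of 1.06e-10. *cyt1* and *cyt1l*, adjacent genes for type I cytokeratins, were both several-fold higher in GFP-positive cells. *cyt1* had 774, 799 and 775 TPM in GFP-positive libraries, against 133, 141 and 136 TPM in GFP-negative libraries, a log2 fold change of 2.63 (SE 0.05; edgeR quasi-likelihood adjusted p = 2.96e-14). *cyt1l* had 821, 838 and 845 TPM in GFP-positive libraries, against 99.1, 103 and 96.3 TPM in GFP-negative libraries, a log2 fold change of 3.18 (SE 0.05; edgeR quasi-likelihood adjusted p = 5.18e-15). On the TPM scale *cyt1* was 0.937 ± 0.0188 times the level of *cyt1l* in GFP-positive cells, against 1.38 ± 0.0345 times in GFP-negative cells (SD, n = 3 each; exact permutation p = 0.1, the smallest possible). On estimated counts, which are not divided by length, *cyt1* was above *cyt1l* in all 6 libraries: 40663, 33824 and 36206 for *cyt1* and 37218, 30586 and 34110 for *cyt1l* in GFP-positive libraries, against 6031, 5408 and 5807 for *cyt1* and 3859, 3409 and 3549 for *cyt1l* in GFP-negative libraries. The order of the pair in GFP-positive cells therefore depends on the length correction. As estimated counts of neither gene were whole in every library, their counts were also summed before the fit, which gave a log2 fold change of 2.87.

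*krt17* showed the largest fold change of the 9. In mammals this type I keratin marks epidermal appendages and stressed epidermis, and the paper treats mouse *Krt17* as a periderm marker. Zebrafish *krt17* had 217, 221 and 214 TPM in GFP-positive libraries, against 6.94, 7.93 and 8.02 TPM in GFP-negative libraries. It was therefore number 821 in abundance among all genes in GFP-positive cells and number 9658 in GFP-negative cells. Its log2 fold change was 4.94 (SE 0.08), with an edgeR quasi-likelihood adjusted p of 4.06e-15. The GFP-negative values rest on 287 to 320 estimated counts per library, the fewest of any of the 9 genes.

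*krt92* and *krt97* are zebrafish keratin genes that were not assigned a type here. *krt92* had 515, 498 and 477 TPM in GFP-positive libraries, against 33.7, 33.5 and 33.8 TPM in GFP-negative libraries, and its log2 fold change was 3.99 (SE 0.07; edgeR quasi-likelihood adjusted p = 9.11e-15). *krt97* was the least abundant in GFP-positive cells, with 110.3, 118 and 122 TPM there, against 63.4, 60.9 and 64.8 TPM in GFP-negative libraries. Its log2 fold change of 0.99 (SE 0.06; edgeR quasi-likelihood adjusted p = 7.67e-09) was close to that of *krt8*. The ratio of *krt8* to *krt97* was 2.52 ± 0.0851 in GFP-positive cells, against 2.53 ± 0.0971 in GFP-negative cells (SD, n = 3 each; exact permutation p = 0.9), and its libraries overlapped between populations.

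All 9 genes were thus called higher, where 24.1% of all genes tested were, and the 9 were picked with results of these data known. At least 2-fold differences were seen for 7 of the 9, against 8.45% of all genes tested. At least 4-fold differences were seen for 6 of the 9, against 2.53% of all genes tested, and at least 8-fold differences for 4 of the 9, against 0.979%. Their median log2 fold change was 2.63. The call held for each of the 9 under every alternative fit, and the log2 fold changes stayed between 0.88 for *krt8* and *krt97* at the lowest and 4.99 for *krt17* at the highest.

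**Figure D2:**
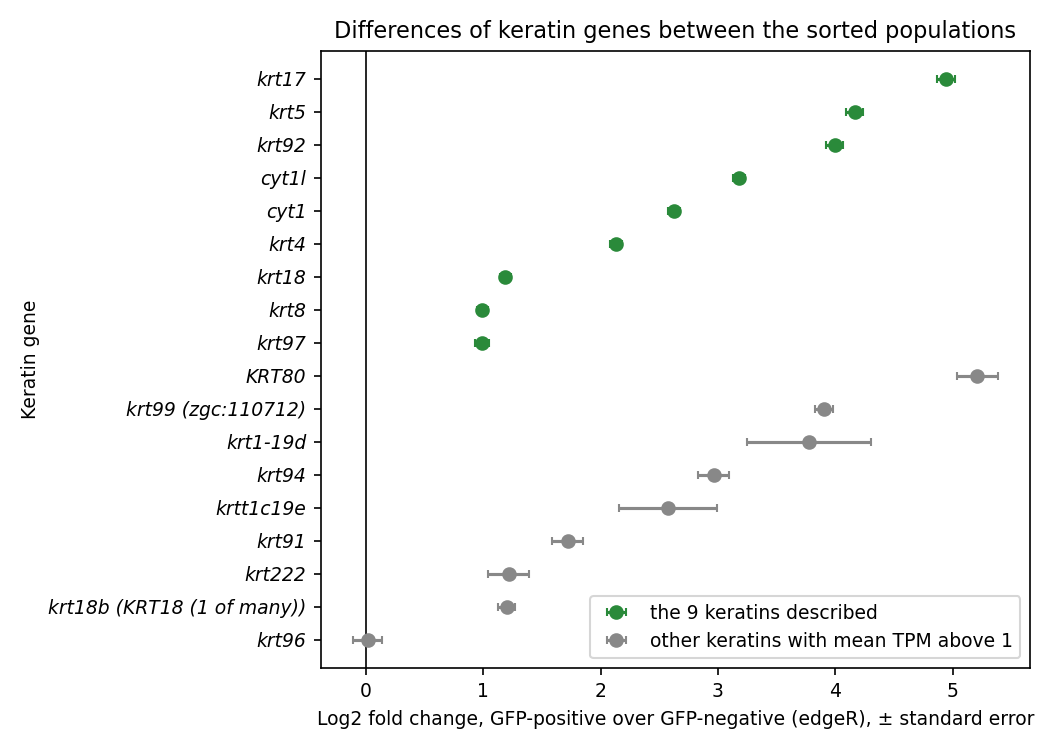
Log2 fold change of GFP-positive over GFP-negative cells from edgeR, with its standard error, for the 9 keratins (green) and for other keratins with a mean above 1 TPM (grey). The vertical line marks no difference. All green points lie to its right, from 0.99 to 4.94, while among the grey points *krt96* sits at 0.02.

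The order of levels was compared on the TPM scale, which is per length. In GFP-positive cells it ran *krt4*, *krt18*, *cyt1l*, *cyt1*, *krt5*, *krt92*, *krt8*, *krt17* and *krt97*, and the ranges over the 3 libraries separated every neighbour. In GFP-negative cells it ran *krt18*, *krt4*, *krt8*, *cyt1*, *cyt1l*, *krt97*, *krt5*, *krt92* and *krt17*, where only the ranges of *krt5* and *krt92* overlapped. *krt4* and *krt18* took the top place in turn on this scale: *krt4* was 1.68 ± 0.0996 times the level of *krt18* in GFP-positive cells, against 0.832 ± 0.0530 times in GFP-negative cells (SD, n = 3 each; exact permutation p = 0.1, the smallest possible). As cells were sorted on *krt4* regulatory activity, this change of order is not independent of the sort. On estimated counts *krt4* led in both populations. In GFP-negative libraries it had 43069, 41392 and 47074, where *krt18* had 36014, 29092 and 32896, so the order there depends on the length correction. The order in GFP-positive cells depends on it as well. *krt5* had 49297, 38718 and 43268 estimated counts in those libraries, above *cyt1* and *cyt1l* in each of them.

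Summed over the 9 genes, keratin mRNA was 7184 ± 135 TPM in GFP-positive cells, against 1860.5 ± 78.4 TPM in GFP-negative cells (SD, n = 3 each), or 0.718% and 0.186% of all TPM. The ratio of the sums was 3.86, and 3.78 when *krt4* was left out. The 9 genes made up 96.8% of the TPM of all genes with a keratin symbol in GFP-positive cells, against 97.3% in GFP-negative cells. Keratins without such a symbol would be missed.

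The share of *krt4* in this sum was 33.8% ± 1.35 in GFP-positive cells, against 32.3% ± 1.39 in GFP-negative cells, and the libraries overlapped, so its share was not separated between populations although its level was. *krt18* took 20.2% ± 0.385 in GFP-positive cells, against 38.9% ± 0.821 in GFP-negative cells. The libraries of the 2 populations did not overlap for the share of any gene other than *krt4*. Shares were larger in GFP-positive cells for *krt5* (7.84% against 1.92% in GFP-negative cells), *krt92* (6.92% against 1.81%), *krt17* (3.03% against 0.392% to 0.423%), *cyt1* (10.9% against 7.36%) and *cyt1l* (11.6% against 5.35%). They were smaller in GFP-positive cells for *krt8* (4.09% against 8.59%) and *krt97* (1.62% against 3.39%). Since shares of a sum move together, they are described and were not tested singly.

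**Figure D3:**
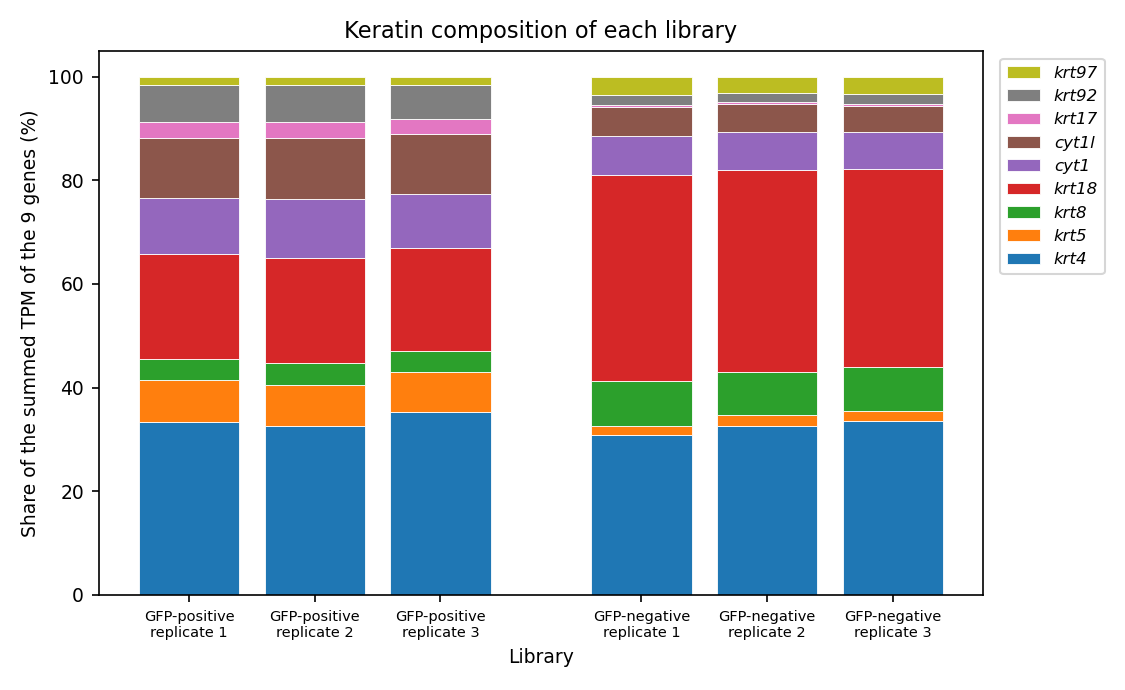
Share of the summed TPM of the 9 keratins taken by each gene, in percent, one stacked bar per library. *krt4* takes about the same share of all 6 bars, while *krt18* takes 20.2% on average in GFP-positive cells, against 38.9% in GFP-negative cells.

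The type II genes *krt4*, *krt5* and *krt8* summed to 3287 ± 153 TPM in GFP-positive cells, against 797 ± 57.7 TPM in GFP-negative cells. The type I genes *krt17*, *krt18*, *cyt1* and *cyt1l* summed to 3283 ± 19.9 TPM in GFP-positive cells, against 967 ± 26.2 TPM in GFP-negative cells (SD, n = 3 each). The ratio of type II to type I was 0.993, 0.957 and 1.05 in GFP-positive libraries and 0.776, 0.829 and 0.869 in GFP-negative libraries. It was higher in all 3 GFP-positive libraries than in any GFP-negative library. *krt4* was the largest part of the type II sum in both populations, so this difference is not independent of the sort either. On library-scaled counts (CPM) not divided by length the ratio was 1.68 in GFP-positive cells, against 1.34 in GFP-negative cells, so its distance from equality depends on the length correction. It also depends on *krt92* and *krt97*, which were left out of both sums. With both counted as type I, the TPM ratio was 0.844 in GFP-positive cells, against 0.749 in GFP-negative cells.

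*krt8* and *krt18* pair in simple epithelia, and their ratio differed less between populations than that of *krt4* to *krt18*. *krt18* was 4.93 ± 0.106 times the level of *krt8* in GFP-positive cells, against 4.53 ± 0.0925 times in GFP-negative cells (SD, n = 3 each). The libraries did not overlap, with an exact permutation p = 0.1, the smallest possible. By contrast *krt4* was 4.31 ± 0.230 times the level of *krt5* in GFP-positive cells, against 16.9 ± 0.967 times in GFP-negative cells (SD, n = 3 each; exact permutation p = 0.1).

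At the level of transcripts the 9 genes had 29 annotated transcripts, of which 19 passed a mean of 1 TPM. *krt4* and *krt97* each had a single transcript, and the estimated counts of *krt4* were whole numbers in all 6 libraries, as they are when no read is divided among transcripts. *cyt1*, *krt8* and *krt17* drew over 98% of their TPM from a single transcript in every library. The main transcript of *krt18* gave 97.8% to 98.3% of the gene in GFP-positive libraries and 84.8% to 97.9% in GFP-negative libraries, and most of the remainder in the GFP-negative libraries lay in a shorter annotated transcript of 757 bases. That transcript had 9.53, 14.9 and 24.8 TPM in GFP-positive libraries, against 9.83, 111 and 68.8 TPM in GFP-negative libraries, so it was high in 2 GFP-negative libraries and not in the other. The second transcript of *krt5* gave 6.21% to 9.48% of the gene in GFP-positive libraries and 8.82% to 24.5% in GFP-negative libraries, and these ranges overlapped as well.

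**Figure D4:**
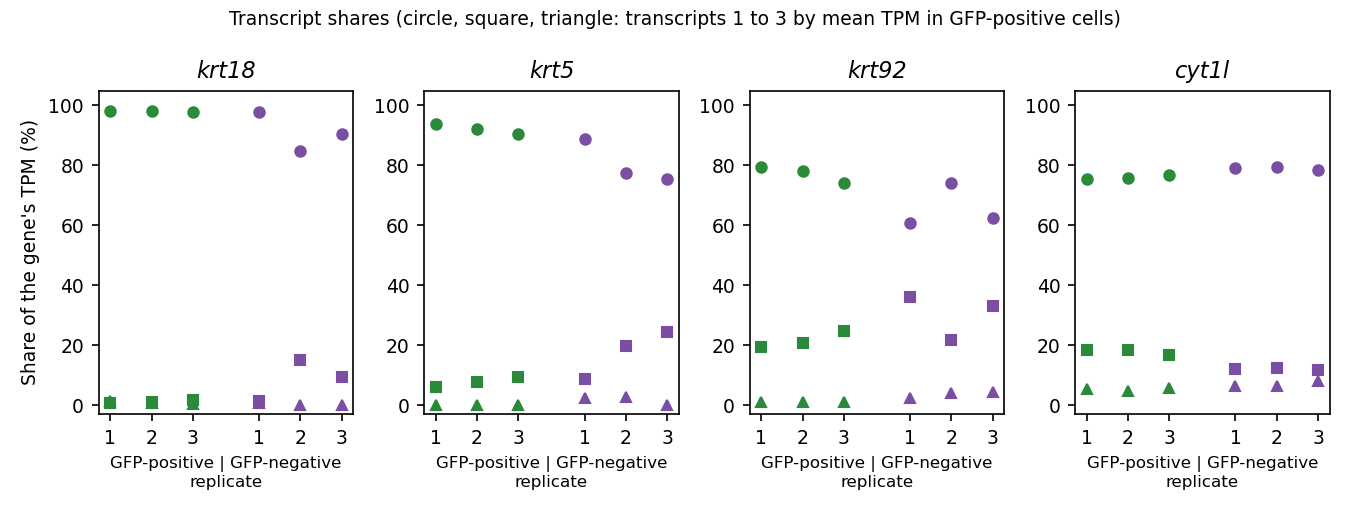
Share of each gene's TPM given by its leading transcripts, in percent, for *krt18*, *krt5*, *krt92* and *cyt1l* in each library, with GFP-positive libraries in green on the left and GFP-negative libraries in purple on the right of each panel. The leading transcript (circles) stays above the others in every library, but in *krt18*, *krt5* and *krt92* its share is spread more widely among the GFP-negative libraries.

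In *krt92* the leading transcript gave 74.0% to 79.5% of the gene in GFP-positive libraries and 61.0% to 74.1% in GFP-negative libraries. In *cyt1l* it gave 75.5% to 76.7% in GFP-positive libraries and 78.4% to 79.4% in GFP-negative libraries, without overlap. The edgeR fold changes rest on counts summed per gene, which do not depend on how reads were split among transcripts of the same gene. Summed TPM, and the ratios and shares taken from it, do depend on that split, because transcripts differ in length. Counts summed per gene can still depend on reads shared between genes. These sums lay within 0.1 of a whole number in all 6 libraries for *krt4* and *krt18*. They did so in 3 libraries for *krt5*, *krt8* and *krt97*, and in 1 for *krt17*, *krt92*, *cyt1* and *cyt1l*.

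Gene order was taken from the RefSeq table, which follows another assembly than the files, so no coordinates are given. 4 of the 9 genes, *krt92*, *cyt1l*, *cyt1* and *krt17*, are consecutive protein-coding genes, preceded by *krt1-19d* and *krt1-19e* (*krtt1c19e* in the files) and followed by *krt91* and *eif1*. Only the nearest protein-coding genes on either side of each of the 9 were looked at, so the run may extend past *krt1-19d*. All 7 keratins listed in this run were called higher in GFP-positive cells, where 24.1% of all genes tested were. Their log2 fold changes ran from 1.72 (*krt91*) to 4.94 (*krt17*). The translation initiation factor gene *eif1* at its end had a log2 fold change of 0.00 (edgeR quasi-likelihood adjusted p = 0.964). *krt5*, *krt8* and *krt18* likewise form a run, in which the log2 fold changes were 4.16, 0.99 and 1.19 in that order. The copy of *krt18* next to it was at 0.279 TPM in GFP-positive cells, against 0.294 TPM in GFP-negative cells. *krt97* lies between *krt222*, at 1.22 on the log2 scale, and *krt96*, at 0.02. Genes in the same run could therefore differ by over 3 log2 units in their fold change.

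Beside the 9 genes, 15 other keratin genes were found by symbol, and 12 of them passed the filter. Of these 12, 8 were called higher in GFP-positive cells, where 24.1% of all genes were, and none lower. Their median log2 fold change was 1.47. The most abundant was *zgc:110712*, named *krt99* in the RefSeq table, at 102 to 108 TPM in GFP-positive libraries, against 7.31 to 7.80 TPM in GFP-negative libraries. The largest fold change was that of *KRT80*, at 35.9 to 44.8 TPM in GFP-positive libraries against 0.844 to 1.48 TPM in GFP-negative libraries, a log2 fold change of 5.21 (SE 0.17). *krt94* was at 16.2 TPM in GFP-positive cells, against 2.25 TPM in GFP-negative cells. A further *krt18* copy, *krt18b*, was at 48.3 TPM in GFP-positive cells, against 24.4 TPM in GFP-negative cells, with a log2 difference of 1.20 beside the 1.19 of *krt18*. *krt1-19d*, *krtt1c19e*, *krt91* and *krt222* averaged 1.09 to 8.18 TPM in GFP-positive cells, against 0.125 to 2.66 TPM in GFP-negative cells. *krt96*, at 10.6 TPM in GFP-positive cells, against 11.3 TPM in GFP-negative cells, was the keratin above 1 TPM that was not called (edgeR quasi-likelihood adjusted p = 0.928).

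Intermediate filament genes other than keratins gave a mixed picture. Of 17 tested, 8 were called higher in GFP-positive cells, where 24.1% of all genes were, 3 lower, where 25.0% were, and 6 neither, with a median log2 fold change of 0.80. Of the 8, *nefma* was not called with limma on log2(TPM + 0.1) (limma adjusted p = 0.0564). *lmnb2*, which encodes a nuclear lamin, was lower in GFP-positive cells, at 63.0 TPM there and 113 TPM in GFP-negative cells, with a log2 difference of -0.72. *desma*, a desmin gene of muscle, was higher, at 67.7 TPM in GFP-positive cells, against 20.9 TPM in GFP-negative cells, with a log2 difference of 1.82. *lmnb1*, another lamin gene, was at 213 TPM in GFP-positive cells, against 258 TPM in GFP-negative cells, and was not called with edgeR, while limma on log2(TPM + 1) called it lower in GFP-positive cells, at -0.27. Of 8 keratin-binding plakin genes listed, 6 were found and tested. All 6 were called higher in GFP-positive cells, where 24.1% of all genes were. Their median log2 fold change was 2.39, and the values ran from 0.37 for the desmoplakin gene *dspa* to 4.13 for the periplakin gene *ppl*. *ppl* and *evpla* were also among the EVL or periderm markers above. The plectin genes *pleca* and *plecb* were the most abundant in GFP-positive cells. *plecb* was at 10.2 TPM in GFP-positive cells, against 3.84 TPM in GFP-negative cells, with a log2 difference of 1.25. *pleca* was at 32.4 TPM in GFP-positive cells, against 28.7 TPM in GFP-negative cells, with overlapping libraries, and neither its call nor that of *dspa* was kept with limma.

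Markers of other cell types also moved with the sort. Of all genes tested, 24.1% were called higher in GFP-positive cells and 25.0% higher in GFP-negative cells. Hatching gland genes were higher in GFP-positive cells in 4 of 4 gene entries, which cover 3 of the 5 symbols listed, with a summed level of 6176 to 6414 TPM there and 713 to 714 TPM in GFP-negative libraries. Among them the hatching enzyme gene *he1a* was at 1808 TPM in GFP-positive cells, against 200.5 TPM in GFP-negative cells. Notochord markers were higher in 4 of 5, at 394 to 494 TPM in GFP-positive libraries and 122 to 123 TPM in GFP-negative libraries. Germ cell markers were higher in 3 of 3, at 15.3 to 17.1 TPM in GFP-positive libraries and 1.19 to 1.47 TPM in GFP-negative libraries. Basal epidermis markers were higher in 3 of 6 and lower in 1, at 95.3 to 116 TPM in GFP-positive libraries and 71.2 to 77.7 TPM in GFP-negative libraries, with *col17a1a* and *lamb4* near 0 in both. Most of this sum was *tp63*, at 87.5 TPM in GFP-positive cells, against 63.1 TPM in GFP-negative cells. Neural markers were lower in GFP-positive cells in 5 of 5, at 475 to 480 TPM there and 878 to 892 TPM in GFP-negative libraries. Calls were mixed among ionocyte (1 of 2 higher), paraxial mesoderm (2 higher and 2 lower of 5), endoderm (1 of 3 higher), blood and endothelium (2 of 4 higher) and yolk syncytial layer markers (1 of 2 higher). The calls of *itgb4* (basal epidermis, lower), *myod1*, *foxa2* and *tal1* were lost with limma on log2(TPM + 1), which called *myf5* (paraxial mesoderm) lower. With edgeR's quasi-likelihood test the call of *foxa2* was also lost without GFP-positive replicate 2 or GFP-negative replicate 2 or 3 (adjusted p of 0.0590 to 0.0977). That of *tal1* was lost without GFP-positive replicate 1 or GFP-negative replicate 1 or 2 (edgeR quasi-likelihood adjusted p of 0.0544 to 0.101). The part of these cell types in the keratin differences was not tested.

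**Figure D5:**
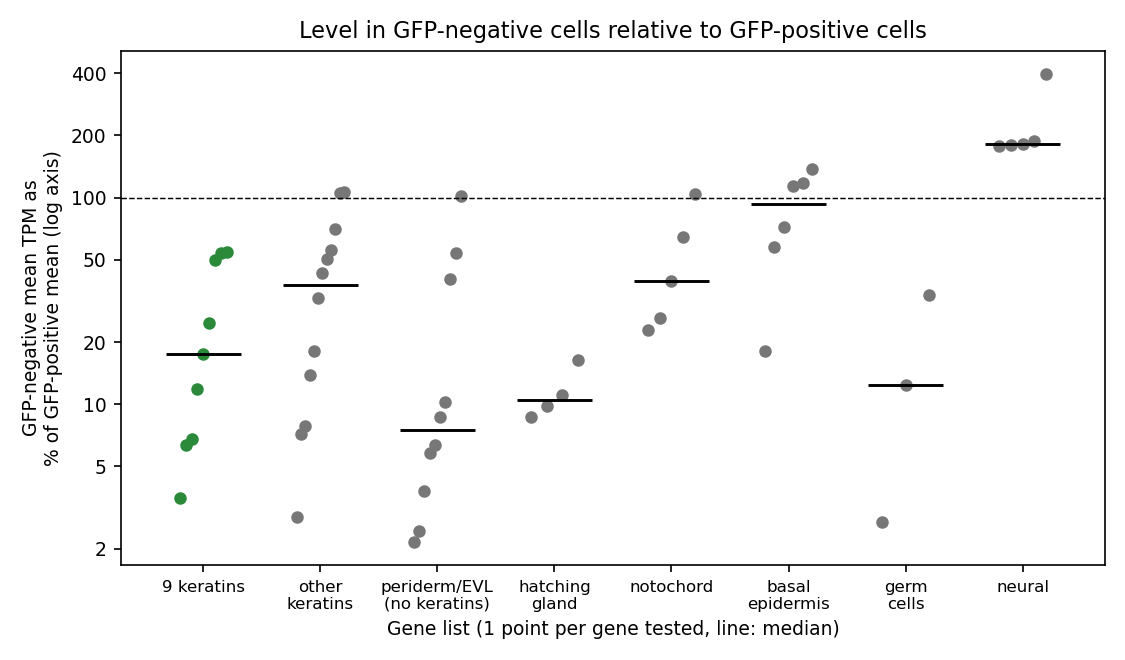
GFP-negative level as a percentage of the GFP-positive level (log axis) for each tested gene of 8 lists, each dot a gene and each black line the list's median, with the dashed line at equality. The 9 keratins (green) run from 3.51% to 54.4%, the medians are 17.5% for the 9 keratins, 7.52% for the periderm or EVL markers and 10.5% for the hatching gland genes, and all neural genes lie above 100%.

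The GFP-negative level set against the GFP-positive level separates the 9 keratins further. For *krt17*, *krt5* and *krt92* it was 3.51%, 6.35% and 6.77%, set beside a median of 7.52% over the EVL or periderm markers. For *cyt1l*, *cyt1* and *krt4* it was 11.9%, 17.5% and 24.8%. For *krt18*, *krt97* and *krt8* it was 49.9%, 54.1% and 54.4%. Single EVL or periderm markers ran from 2.16% to 101.5%, a range that covers all 9 keratins.

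The genes most like the 9 keratins were found by Pearson correlation over the 6 libraries. The log2(TPM + 1) of each gene was set against that of the summed TPM of the 9. The search covered the 8672 genes with a mean of at least 10 TPM over the 6 libraries. The nearest 5 were *cpa4*, *CABZ01044297.1*, *acta1b*, *hspb9* and *ntd5*, all at r = 1.00 after rounding. As the 6 libraries form 2 groups, such values mostly reflect the difference between populations, and 4.90% of the genes reached r of at least 0.99.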

How the data were processed

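Gene expression was measured by RNA sequencing of 6 libraries. Per the labels and methods, the authors trimmed reads with Trimmomatic (0.35 in the processing notes; the methods name another version) and quantified them with kallisto 0.41 against danRer10 cDNA; the annotation release is not given in the sources used here. The deposited tables hold estimated counts and TPM per transcript, both made by the authors. The authors' sleuth comparison columns hold fold changes and p-values and were not used. The GEO record and the methods give different cell numbers per library, so none is printed.

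Estimated counts and TPM were summed per gene, and estimated counts rounded to whole numbers. Genes passing filterByExpr (20944) were tested with edgeR 4.0.16 (TMM, quasi-likelihood F test) in R 4.3.3, with Benjamini-Hochberg adjustment over all of them. A call needed an adjusted p below 0.05 and a mean TPM above 1 in the higher population. The code was tested on simulated counts. Alternatives were DESeq2 1.42.0, RLE factors, no TMM, no filter, the replicate number as a block, leaving out each library, limma 3.58.1 on log2(TPM + 1) or log2(TPM + 0.1), and an adjusted p below 0.01. Other keratins were named where either mean passed 1 TPM, other intermediate filament genes as the 3 highest by TPM, plakins as the 2 highest in GFP-positive cells and the ends of the range, and marker lists by their sums; members singled out beyond these were chosen after their values were seen. The keratins and the gene lists were chosen with earlier results of these data known. Symbols were matched in the RefSeq name table for 22789 gene IDs.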

Additional observations from a re-analysis of the deposited data

How the results depend on the processing

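All 9 keratins were called higher in GFP-positive cells in every alternative fit, with the highest adjusted p of any of them 3.25e-05 for *krt97*, and no called result changed direction. Estimates that were not called did: 37 values of 11 genes, *nefmb*, *grhl3* and *krt96* among them, had the other sign, and 0 of these had an adjusted p below 0.05 in the edgeR, DESeq2 or limma fit that gave them. The median over all genes was 0.02 with edgeR and -0.11 with limma on log2(TPM + 1). Over all alternatives, single-gene results kept their side of the threshold 1268 times, lost it 27 times and gained it 12 times; none of the changed calls was one of the 9 keratins. With limma on log2(TPM + 1), 3876 genes were called higher in GFP-positive and 6147 in GFP-negative cells. When 1 library was dropped at a time the counts were 4460 to 5155 and 4545 to 5409. The labels give both populations the replicate numbers 1 to 3, but same-numbered libraries did not deviate together (correlations 0.07, -0.06 and -0.07); the fit with the replicate block gave 4905 and 5073 calls, 9 of them keratins described here, and called *grhl3*. On library-scaled counts (CPM) not divided by length, the log2 ratio of the summed keratins was 2.07, against 1.95 on TPM, the share of *krt4* was 44.6% in GFP-positive cells, against 42.8% in GFP-negative cells, and type II over type I was 1.68 and 1.34. With only the most abundant transcript of each gene the share was 35.8% and 34.3%, and the ratio 1.06 and 0.898 in the same order. Counting *krt92* and *krt97* as type I, an alternative chosen after seeing the data, gave 0.844 and 0.749. In each of these the ratio was higher in GFP-positive cells. The depth limits the low genes more than the 9 keratins, all of which had at least 287 estimated counts in every library.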

Other observations

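Among the germ cell markers, *nanos3*, which encodes an RNA-binding protein that germ cells need, was at 10.5 to 11.7 TPM in GFP-positive libraries and 0.163 to 0.383 TPM in GFP-negative libraries, a log2 fold change of 5.26 (SE 0.25). *tp63*, a transcription factor of basal epidermis, averaged 87.5 TPM in GFP-positive cells, against 63.1 TPM in GFP-negative cells, with a log2 fold change of 0.73. Both genes were singled out after their values were seen.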
